A study of Mus musculus with 5 samples.

Results

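C/D box small nucleolar RNAs (snoRNAs) other than the few dominant entries were followed through 5 mouse germ cell and embryo libraries. The set held every snoRNA entry whose name carries a SNORD symbol, without small Cajal body RNAs and without SNORD60, SNORD32 to SNORD35, SNORD44, SNORD47 and SNORD74 to SNORD81. This gave 75 members of the 192 snoRNA entries. The others were 65 H/ACA entries, 14 small Cajal body RNAs, 28 entries with other names and the 10 entries that the rule leaves out, which held 97.1% of snoRNA reads in primordial germ cells and 74.7% in zygotes. Small RNAs of 18 to 32 nucleotides had been sequenced from total RNA, with 1 library per cell type.

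Primordial germ cells (PGCs) came from CD-1 male gonads at 13.5 days post coitum and were picked with anti-CD15 beads. Spermatogonia came from CD-1 testes at 8.5 days after birth, after somatic cells had settled and adhered for some hours, and were checked for Stra8, a germ cell gene, and for missing Fn1, a somatic gene. Spermatozoa were from the cauda epididymis and vas deferens of mature CD-1 males, cleaned on Percoll and by hypo-osmotic shock. Metaphase II oocytes (15210 cells) were from C57BL/6 females aged 4 to 5 weeks that had received 5 IU PMSG and, 48 hours later, 5 IU HCG. Zygotes (15416 cells) were from such females mated with DBA/6J males and were taken 15 to 18 hours after fertilization. Strain and preparation therefore differ between the male germ cell libraries and the egg libraries and cannot be told apart from cell type. No untreated or second library of any cell type was analysed here, so differences between cell types were neither tested nor checked against a replicate.

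C/D box snoRNAs are short nucleolar RNAs that carry a C box near the 5′ end and a D box near the 3′ end, where a core of proteins that includes fibrillarin, Nop56, Nop58 and Snu13 assembles. Most pair with ribosomal RNA next to the D or D′ box and direct 2′-O-methylation of the paired base, while a few, such as U3 and U8, serve in cleavage of the ribosomal RNA precursor. In mammals most are released from introns of host genes, many of which encode ribosomal proteins or proteins of ribosome assembly. A library of short reads sees fragments of these RNAs or their ends, so the values below count short reads assigned to each name and not intact snoRNAs.

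By symbol, 49 of the 75 members matched 56 genes of the GENCODE vM21 annotation of GRCm38 (mm10, the build named by the submitters), with lengths of 64 to 238 bases and a median of 79.0. Of these genes, 32 lay in introns alone of a gene on the same strand, 23 lay in introns of some transcripts and exons of others, and 1 lay outside other genes. The letters TGATGA (C box) within the first 26 bases and CTGA (D box) within the last 15 bases, searched on the transcript strand, were both present in 36 of the 56 genes (64.3%), against 306 of all 1507 annotated snoRNA transcripts (20.3%) and 0 of 42 Snora (H/ACA) genes. Such a match describes the letters only. The sequences that the results turn on are given 5′ to 3′ with the letters found for the boxes in capitals; for Snord57 only the D box letters were found. Snord21 was among the leading members in the eggs, the entry of both Snord49 copies was among the more even over the libraries, Snord57 led in spermatogonia, Snord83b and Snord37 were high in spermatozoa, Snord64 was nearly missing there, and Snord110 and Snord65 are the low partners of Snord57 and Snord49 in the same host genes.
Snord21, chr5:107904555-107904648, plus strand, intron of Rpl5 and exon of a retained-intron transcript: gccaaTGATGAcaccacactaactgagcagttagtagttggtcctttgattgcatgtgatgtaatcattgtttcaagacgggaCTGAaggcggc
Snord49a, chr11:62603450-62603521, plus strand, intron of 2410006H16Rik: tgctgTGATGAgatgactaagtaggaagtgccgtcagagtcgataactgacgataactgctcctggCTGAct
Snord49b, chr11:62603079-62603150, plus strand, intron of 2410006H16Rik: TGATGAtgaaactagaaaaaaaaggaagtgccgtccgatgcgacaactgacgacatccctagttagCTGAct
Snord65, chr11:62604515-62604586, plus strand, intron of 2410006H16Rik: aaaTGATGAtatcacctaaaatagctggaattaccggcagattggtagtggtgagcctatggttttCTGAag
Snord57, chr2:130278016-130278087, plus strand, intron and exon of Nop56 transcripts: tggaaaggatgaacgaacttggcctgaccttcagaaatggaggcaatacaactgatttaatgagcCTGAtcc
Snord110, chr2:130275506-130275573, plus strand, intron of Nop56: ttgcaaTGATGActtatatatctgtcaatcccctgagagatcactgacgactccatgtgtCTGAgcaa
Snord83b, chr15:80078498-80078591, minus strand, intron of Rpl3: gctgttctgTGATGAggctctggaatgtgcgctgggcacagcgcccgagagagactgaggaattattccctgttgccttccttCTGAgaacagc
Snord37, chr10:81178950-81179013, plus strand, intron of Eef2: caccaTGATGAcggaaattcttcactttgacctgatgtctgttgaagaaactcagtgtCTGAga
Snord64, chr7:59978808-59978874, minus strand, intron and exon of Gm38393 transcripts: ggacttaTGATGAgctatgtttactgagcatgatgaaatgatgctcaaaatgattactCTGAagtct

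The set was a small part of every library. It held 141560 short reads in PGCs and 120283 in spermatogonia, 39344 in spermatozoa, and 102812 in oocytes and 91513 in zygotes. Of all reads in the 4 class tables (miRNA, snoRNA, piRNA and endo-siRNA; 21836360 to 43266969 reads per library) this was 0.532% in PGCs and 0.456% in spermatogonia, 0.180% in spermatozoa, and 0.238% in oocytes and 0.212% in zygotes. The set was thus highest in PGCs and lowest in spermatozoa. Without the 5 most abundant members of each library, spermatozoa (0.0559%) lay above oocytes (0.0425%) and zygotes (0.0366%). Of the reads of the snoRNA table alone the order was different, with the eggs highest: 1.87%, 2.34%, 3.79%, 13.3% and 14.8% in the same order of libraries. The exact 95% interval (Clopper-Pearson) of the last share was 14.67% to 14.85%, and all intervals here cover counting error only, because copies made by PCR are not independent molecules. In libraries from many cells, fewer cells of a type and less RNA per cell cannot be told apart.

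**Figure D1:**
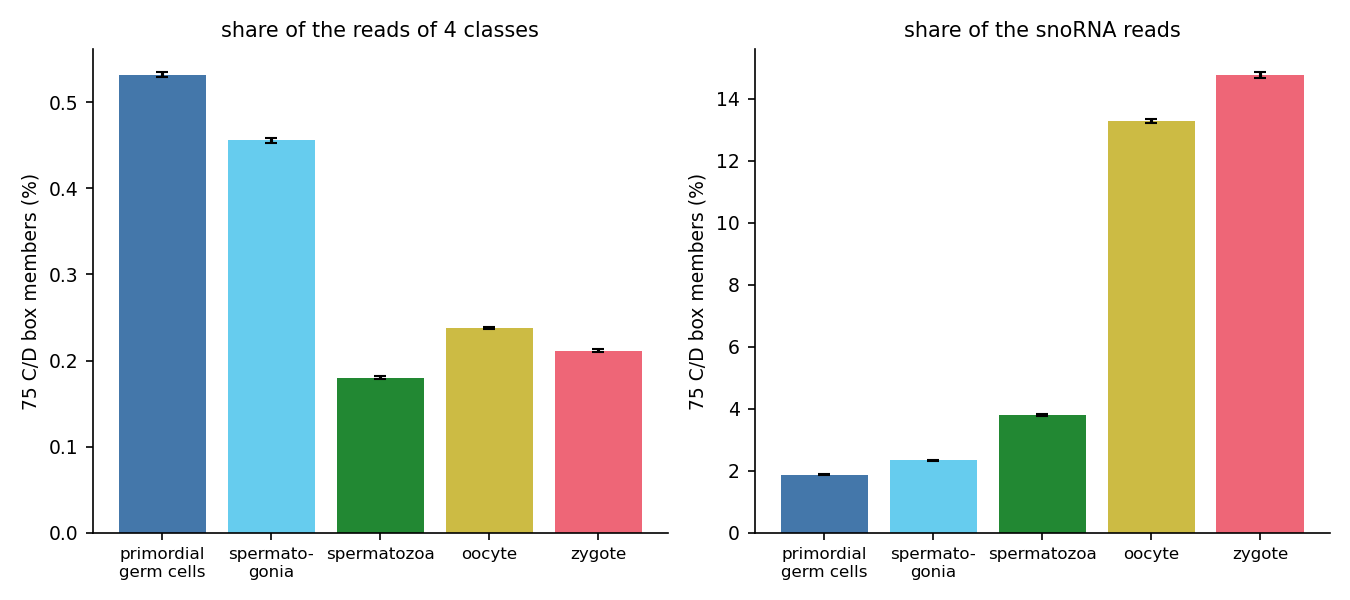
Bars give the share of the 75 members in the reads of the 4 classes (left, %) and in the snoRNA reads (right, %) of each of 5 libraries, with exact 95% counting intervals. The share of 4 classes was highest in PGCs (0.532%) and lowest in spermatozoa (0.180%), while the share of snoRNA reads was highest in zygotes (14.8%); without the 5 most abundant members of each library, not drawn, the share of 4 classes was lowest in zygotes (0.0366%).

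The labels were compared with miRNA markers, as reads per 1000000 miRNA reads. The late spermatogenesis miRNAs (miR-34b, miR-34c and miR-449a) summed to 235991 in spermatozoa and to 8291 or less elsewhere, and those of the miR-290 and miR-302 clusters, known from pluripotent and early germ cells, to 42619 in PGCs against 65.8 in spermatozoa. Smooth and peritubular muscle miRNAs (miR-143 and miR-145) summed to 233110 in spermatogonia and 230783 in spermatozoa, with all 4 entries read, against 9261 in PGCs, 26563 in oocytes and 20992 in zygotes. Erythroid miRNAs summed to 18886 and epithelial miRNAs to 22968 in spermatozoa, against at most 1774 and 9966 elsewhere. Leukocyte miRNAs summed to 3057 in spermatozoa and at most 540.3 elsewhere. Gonadal soma miRNAs (miR-202) summed to 14981 in spermatogonia against 1734 in PGCs, and endothelial miRNAs (miR-126) to 9053 against 1051. The part of other cell types in the snoRNA differences was not tested.

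RPM over the 4 classes are the reads of a member per 1000000 reads of all 4 tables. Members are given below as their share of the reads of the set, and ratios are between 2 such shares unless said otherwise. These shares are not divided by length. Across the 49 matched members the mean share did not follow gene length (Spearman correlation -0.04, a description over members). Since shares of a set sum to a whole, a member that takes much of a library lowers all the others in it.

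SNORD63, a guide for the large-subunit ribosomal RNA, had the highest mean share. It took 6.98% of the set in PGCs and 6.91% in spermatogonia, 4.23% in spermatozoa, and 41.1% in oocytes and 38.3% in zygotes. As shares of the set, both egg libraries stood far above the 3 male germ cell libraries. In RPM over the 4 classes SNORD63 was also highest in oocytes (976.6) and zygotes (809.8). The male germ cell libraries differed more on this scale, with 371.2 in PGCs, 315.1 in spermatogonia and 76.2 in spermatozoa.

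SNORD21, which lies in an intron of the ribosomal protein gene Rpl5, took 11.03% in PGCs and 6.53% in spermatogonia, 1.66% in spermatozoa, and 10.5% in oocytes and 16.3% in zygotes. In RPM over the 4 classes the order of libraries changed. PGCs were highest (586.6), zygotes had 345.3, and spermatogonia (297.5) lay above oocytes (248.7), with 29.9 in spermatozoa. A separate entry named only as small nucleolar RNA had 1.01 to 1.14 times the reads of SNORD21. Whether the same reads stand behind both names was not tested. SNORD49, with copies in the non-coding host 2410006H16Rik, took 5.54%, 5.57%, 10.13%, 10.04% and 9.79% in the same order of libraries. It was among the steadiest of the leading members, and in RPM over the 4 classes its range was 182.5 in spermatozoa to 294.9 in PGCs. Its neighbouring values in oocytes, zygotes and spermatozoa lay within 1 percentage point of each other.

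SNORD105, whose host is known to be the ribosome assembly gene Ppan, was the leading member in spermatozoa. It took 2.79% in PGCs and 4.86% in spermatogonia, 20.4% in spermatozoa, and 1.10% in oocytes and 0.914% in zygotes. SNORD83B, in an intron of the ribosomal protein gene Rpl3, took 0.834%, 0.881%, 13.7%, 0.867% and 0.773% in that order. As shares of the set, spermatozoa thus stood alone for SNORD83B, with the other 4 libraries nearly level. In RPM over the 4 classes spermatozoa were again highest (247.3), but the other libraries ranged from 16.4 in zygotes to 44.4 in PGCs. With SNORD63 left out of the set, both egg libraries instead lay above PGCs and spermatogonia. The order among these 4 libraries therefore depends on the scale. SNORD102, known from an intron of a ribosomal protein gene, also had its highest share in spermatozoa (7.88%), against 2.53% to 3.26% in the other libraries. Its RPM over the 4 classes showed no such peak. PGCs were highest on that scale (158.6), and spermatozoa (141.9) lay close to spermatogonia (142.95).

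SNORD57, in the gene of the C/D core protein Nop56, led in spermatogonia. It took 4.79% in PGCs and 12.1% in spermatogonia, 5.12% in spermatozoa, and 1.93% in oocytes and 1.70% in zygotes. SNORD15, from introns of Rps3, had the same peak at 7.75% in spermatogonia, with 4.70% in PGCs, 1.66% in spermatozoa, and 0.289% in oocytes and 0.305% in zygotes. SNORD85 took 6.53% in spermatogonia and about as much in eggs (5.91% in oocytes and 6.27% in zygotes), but 2.24% in PGCs and 1.10% in spermatozoa. In RPM over the 4 classes it had 297.4 in spermatogonia, above oocytes (140.4) and zygotes (132.7). With SNORD63 left out of the set, oocytes (10.03%) and zygotes (10.16%) instead lay above spermatogonia (7.01%). How SNORD85 compares between spermatogonia and eggs therefore depends on the scale.

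PGCs were led by SNORD45, whose copies lie in Rabggtb and guide the small-subunit ribosomal RNA. It took 11.4% there, 5.59% in spermatogonia, 1.03% in spermatozoa, and 1.93% in oocytes and 1.28% in zygotes. SNORD28, known from the non-coding host Snhg1, took 8.71%, 1.53%, 0.501%, 0.12% and 0.0947%, the widest spread among the 16 most abundant members. SNORD58, from Rpl17, was more even, with 5.29%, 2.77%, 4.28%, 1.40% and 1.16%.

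**Figure D2:**
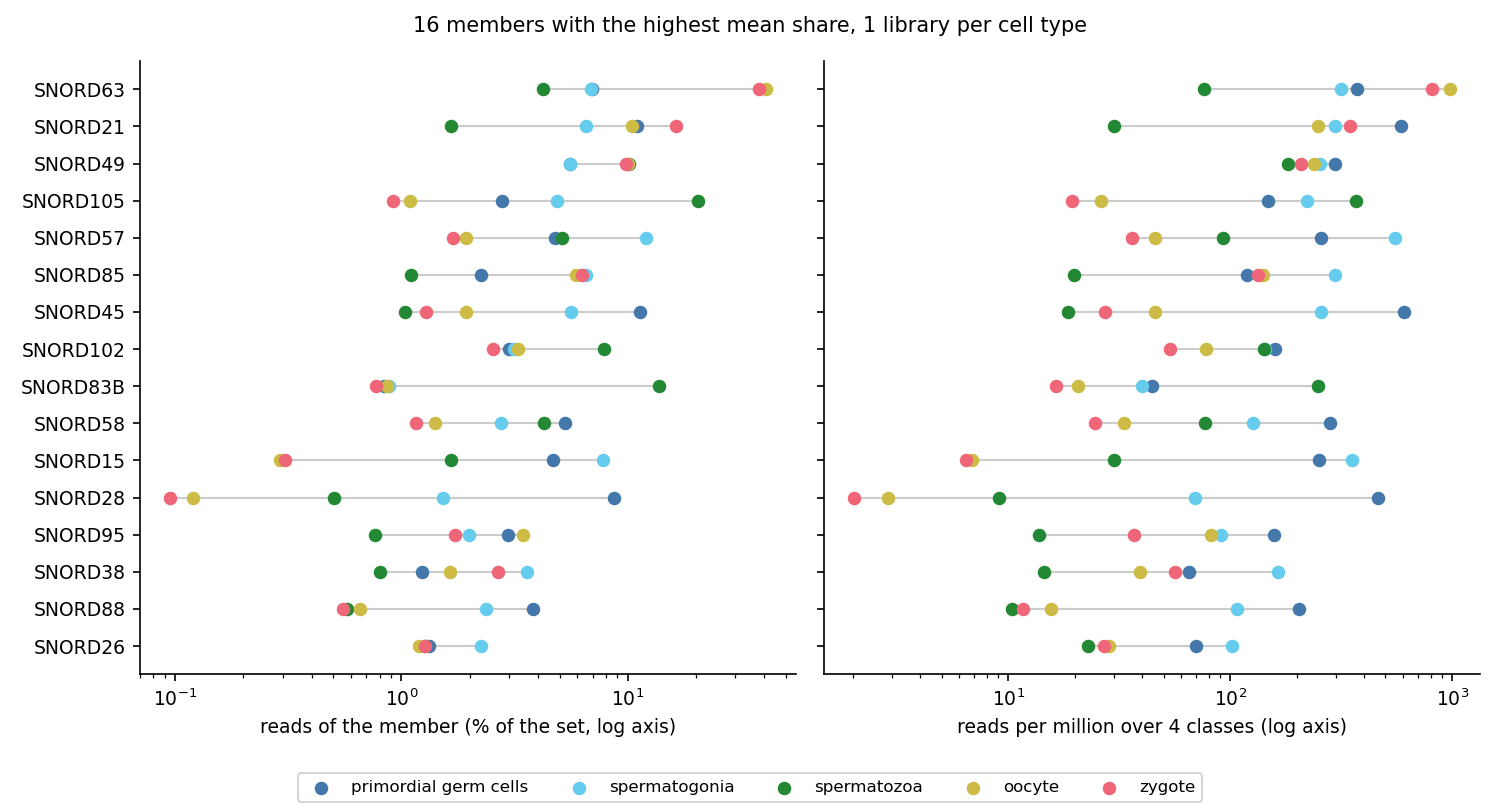
Each row is 1 of the 16 members with the highest mean share; points give its reads as a share of the set (left, %, log axis) and in RPM over the 4 classes (right, log axis) in each of 5 libraries, and grey lines span the 5 values. SNORD63 was highest in oocytes and zygotes on both scales, SNORD105 and SNORD83B in spermatozoa.

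A few members made up most of each library. In oocytes and zygotes 2 members held at least 50% of the reads of the set, in spermatozoa 4, and in PGCs and spermatogonia 7 each. Between 42 members (spermatozoa) and 64 members (spermatogonia) had 100 or more reads. Without SNORD63, SNORD21 made up 26.4% and SNORD49 15.9% of the zygote set.

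The library in which each member was highest or lowest was counted for the members alone and not for all snoRNA entries. Whether these counts differ from those of all entries is therefore unknown, and they are not read as a trait of the members. Spermatozoa also had the fewest reads of the set (39344). As shares of the set, 22 of the 75 members were highest and 28 were lowest in spermatozoa. With RPM over the 4 classes only 7 members were highest in spermatozoa, and 35 were lowest there. These 7, named after their values were seen, were SNORD105, SNORD83B, SNORD17, SNORD3@, SNORD37, SNORD71 and SNORD16. On that second scale 39 members were highest in PGCs, 27 in spermatogonia, 2 in oocytes and 0 in zygotes.

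The reads of oocytes and zygotes were spread over the members in nearly the same way. This comparison asks what the zygote shares with the egg before fertilization. The shares of the set overlapped by 90.6% (the sum over members of the smaller of both shares), and of 55 members measured, that is, with 100 or more reads summed over both libraries, 50 lay within 2-fold. Here and below, members within 2-fold were counted in the set alone and not over all snoRNA entries. Whether such counts are particular to the set is therefore unknown. Much of the overlap was SNORD63 alone, at 41.1% in oocytes and 38.3% in zygotes. The Spearman correlation over the 75 members, which gives each member equal weight, was 0.96. The count at least 4-fold higher in zygotes was 0, against 0.962% of all measured snoRNA entries, and the count at least 4-fold lower was also 0, against 1.92% of these entries. On the scale of all 4 classes the counts were 0 higher (0.962%) and 1 lower (2.88%). The median log2 ratio of the members was 0.04.

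A few members stood apart within this narrow spread. SNORD24, a guide known from an intron of the ribosomal protein gene Rpl7a, had 824.67 reads in oocytes and 194 in zygotes, and was 3.78-fold lower in zygotes (95% counting interval 3.23 to 4.45). SNORD52, from a non-coding host, had 662.67 and 175.33 reads and was 3.36-fold lower (2.85 to 4.01). SNORD46 (2.30-fold, 1.5 to 3.55), SNORD95 (1.99-fold, 1.88 to 2.12) and SNORD19 (1.82-fold, 1.57 to 2.11) were the next lowest.

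On the other side SNORD69, in an intron of the nucleolar protein gene Gnl3, had 107.5 reads in oocytes and 310.17 in zygotes, and was 3.24-fold higher in zygotes (2.58 to 4.05). SNORD111, in Sf3b3, had 141.5 and 366 reads and was 2.91-fold higher (2.38 to 3.54). SNORD42 was 1.69-fold (1.28 to 2.24), SNORD100 1.63-fold (1.28 to 2.12) and SNORD38 1.63-fold (1.53 to 1.73) higher. The counting interval of the ratio lay above 1 for 15 members and below 1 for 19. With 1 library each, how far such ratios would vary between libraries of 1 cell type is unknown.

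The zygote resembled spermatozoa far less. The shares overlapped by 37.3%, and 19 of 60 measured members lay within 2-fold, again counted for the members alone. SNORD63, at 38.3% in zygotes and 4.23% in spermatozoa, made up much of the missing overlap. The Spearman correlation over the 75 members was 0.62. Of the 60, 9 were at least 4-fold higher in zygotes, against 18.9% of all measured snoRNA entries, and 15 at least 4-fold lower, against 21.7%. Scaled to the 4 classes 10 were higher (20.8% of all entries) and 15 lower (19.8%). Neither count was far from the share of all entries. The split turned with the scaling. It was 15 higher and 8 lower with edgeR TMM factors or without the 5 most abundant members of each library, and 11 and 11 with DESeq2 size factors.

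SNORD64, an orphan guide of the imprinted Prader-Willi region with no known ribosomal target, had the highest ratio. It had 510.5 reads in PGCs and 199 in spermatogonia, 3 in spermatozoa, and 623.5 in oocytes and 595.5 in zygotes. It was 85.3-fold higher in zygotes than in spermatozoa (29.1 to 415.3, from 3 reads in spermatozoa). SNORD21 was 9.85-fold higher in zygotes (9.11 to 10.7), SNORD63 9.06-fold (8.62 to 9.52), SNORD113/SNORD114 7.63-fold (3.77 to 18.0) and SNORD85 5.72-fold (5.18 to 6.31).

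SNORD3@, the U3 RNA of pre-ribosomal RNA cleavage, went the other way. It had 534.54 reads in PGCs and 930.84 in spermatogonia, 803.92 in spermatozoa, and 43.84 in oocytes and 11.3 in zygotes, and was 165.5-fold lower in zygotes than in spermatozoa (94.5 to 341.9). SNORD16, from Rpl4, was 37.4-fold lower in zygotes (22.6 to 71.9), SNORD105 22.3-fold (20.8 to 24.0), SNORD46 19.6-fold (13.4 to 29.0) and SNORD37 19.2-fold (13.9 to 27.3). The male germ cell libraries were all above both egg libraries for U3.

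Spermatozoa were also compared with oocytes, to ask how the gametes differ. This comparison shares its spermatozoa library with the one above and is no separate evidence. Of the 61 members measured, 16 were higher by 4-fold or more in spermatozoa, against 22.4% of all measured snoRNA entries, and 9 at least 4-fold lower, against 15.9%. By RPM of the 4 classes 14 were higher (18.7%) and 11 lower (21.5%). TMM factors gave 8 higher and 14 lower, DESeq2 size factors 10 and 13, and totals without SNORD63, a setting chosen after seeing the data, 9 and 14. The highest ratios belonged to SNORD3@ (47.9-fold, 35.2 to 66.2), SNORD105 (18.6-fold, 17.5 to 19.8), SNORD37 (18.5-fold, 13.6 to 25.5), SNORD16 (17.2-fold, 11.9 to 24.7) and SNORD83B (15.8-fold, 14.8 to 17.0). SNORD64 was 79.5-fold lower (27.1 to 387.0), SNORD24 15.8-fold (10.15 to 25.98), SNORD63 9.72-fold (9.26 to 10.2), SNORD21 6.31-fold (5.83 to 6.85) and SNORD113/SNORD114 6.27-fold (3.09 to 14.8).

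**Figure D3:**
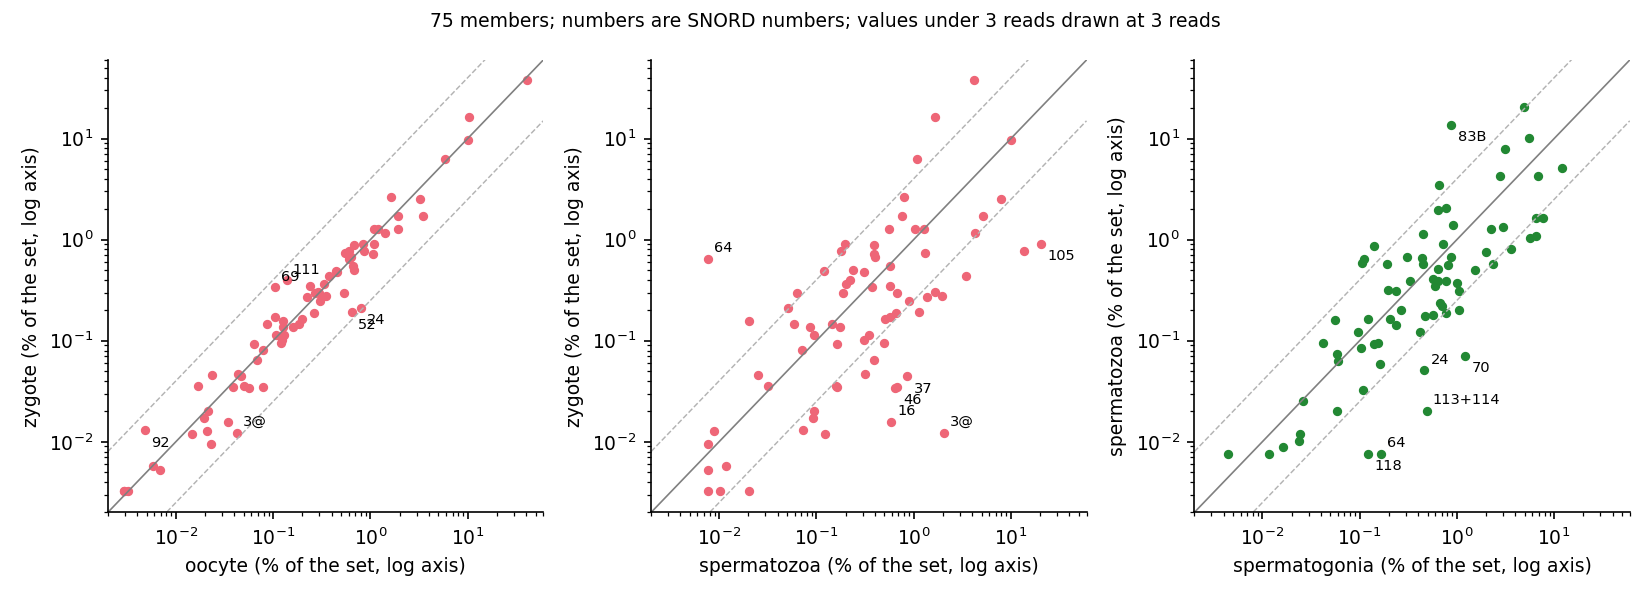
Each point is 1 of 75 members, with its share of the set (%, log axes) in 2 libraries; the solid line marks equal shares and dashed lines 4-fold, and numbers are SNORD numbers of the 6 members farthest apart. Zygotes and oocytes lie along the line (50 of 55 measured members within 2-fold), zygotes and spermatozoa scatter widely (19 of 60).

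From PGCs to spermatogonia the set kept much of its order. The shares overlapped by 71.0%, and 42 of 68 measured members lay within 2-fold, a count for the members alone. Of the 68, 7 were at least 4-fold higher in spermatogonia, against 11.9% of all measured snoRNA entries, and 2 at least 4-fold lower, against 3.73%. Against all 4 classes the counts were 4 higher (7.46%) and 2 lower (4.48%), with TMM factors 4 and 2, and with DESeq2 size factors 3 and 2. With the deposited factor, chosen after seeing the data, they were 2 and 4.

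SNORD67, in an intron of Ckap5, which guides modification of the spliceosomal U6 RNA, had 22 reads in PGCs and 531 in spermatogonia, 257 in spermatozoa, and 268 in oocytes and 174 in zygotes. It was 28.4-fold higher in spermatogonia than in PGCs (18.6 to 45.7), where it was lowest. SNORD94, another guide of U6, had 139, 1053, 268, 304 and 272 reads and was 8.92-fold higher (7.46 to 10.7). The next were SNORD66, from Eif4g1 (5.34-fold, 4.52 to 6.30), SNORD23 (5.05-fold, 3.75 to 6.90) and SNORD39 (4.53-fold, 3.90 to 5.25), whose reads equal those of a separate entry U39 in all 5 libraries.

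SNORD28 had 12331.7 reads in PGCs and 1837 in spermatogonia and was 5.70-fold lower (5.43 to 5.99). SNORD42, in Rpl23a, had 964.33 and 194.67 reads and was 4.21-fold lower (3.60 to 4.92). SNORD53 (2.89-fold, 2.53 to 3.31), SNORD25 (2.75-fold, 2.49 to 3.04) and SNORD29 (2.21-fold, 1.65 to 2.95) came next, and SNORD25 and SNORD29 share the host Snhg1 with SNORD28. Not all members of this host fell. SNORD26 took 1.32% in PGCs and 2.24% in spermatogonia, and SNORD22 0.0935% and 0.109%. Of the 8 Snhg1 members 1 was at least 4-fold lower, against 3.73% of all measured snoRNA entries, and their median log2 ratio was -0.86.

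Between spermatogonia and spermatozoa the 2 scales gave different pictures. As shares of the set 6 of the 66 members measured were higher by 4-fold or more in spermatozoa, against 6.67% of all measured snoRNA entries, and 12 at least 4-fold lower, against 20.8%. Relative to the 4 classes 1 was higher (1.67%) and 33 were lower (50.8%), with a median log2 ratio of -1.98 in place of -0.64, a shift of -1.34 that applies to all members alike. TMM factors gave 6 higher and 8 lower, DESeq2 size factors 9 and 6. The share of 33 among 66 members is near that of all entries.

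SNORD83B was the one member at least 4-fold higher on both scales, 15.6-fold as a share of the set (14.6 to 16.7) and 6.16-fold in RPM over the 4 classes. SNORD37 (6.06-fold, 5.03 to 7.33), SNORD71 (5.85-fold, 4.72 to 7.26), SNORD16 (5.57-fold, 4.47 to 6.96) and SNORD17 (5.32-fold, 4.87 to 5.81) followed as shares of the set. SNORD105 was the last of the 6 at 4.20-fold (4.06 to 4.34), and in RPM over the 4 classes 1.66-fold higher. SNORD71 is a guide for the 5.8S ribosomal RNA. In RPM of the 4 classes these 4 were 2.10-fold to 2.40-fold higher.

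SNORD113/SNORD114, maternally expressed guides of the imprinted Dlk1-Dio3 region, had 160 reads in PGCs and 589.33 in spermatogonia, 8 in spermatozoa, and 131 in oocytes and 142 in zygotes, and was 24.1-fold lower in spermatozoa than in spermatogonia (12.1 to 56.0). SNORD64 was 21.7-fold lower (7.32 to 106.1, from 3 reads). SNORD70, in the gene of the C/D core protein Nop58, had 1463.33 and 28 reads and was 17.1-fold lower (11.8 to 25.8). SNORD118, the U8 RNA, had 147.87 and 2.67 reads (18.1-fold lower, 5.42 to 79.1), and SNORD24 was 9.11-fold lower (5.84 to 15.0).

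**Figure D4:**
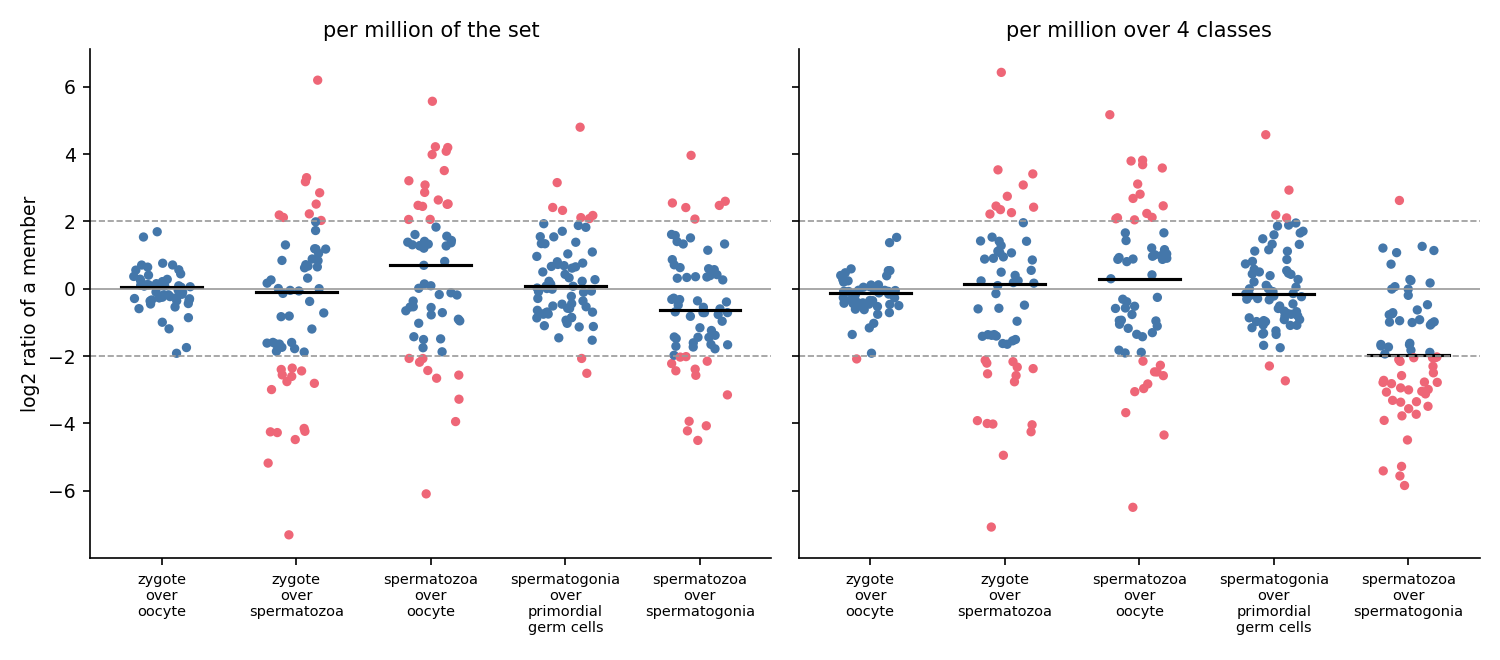
Each point is the log2 ratio of 1 measured member in 1 of 5 comparisons, as a share of the set (left) and in RPM over the 4 classes (right); black bars are medians, dashed lines mark 4-fold and red points lie beyond it. Zygote over oocyte was the narrowest, and spermatozoa over spermatogonia moved from a median of -0.64 to -1.98 with the scale.

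Grouped by role, members with a part in pre-ribosomal RNA cleavage (SNORD3@, SNORD118, SNORD14 and SNORD22) took 0.519% of the set in PGCs and 1.02% in spermatogonia, 2.08% in spermatozoa, and 0.117% in oocytes and 0.0591% in zygotes. In spermatozoa nearly all of this was SNORD3@ (2.04% of the set). SNORD22 had 132.33, 131, 12.67, 51.33 and 33 reads in the 5 libraries, and only 3 of the 4 were measured in any comparison of the male germ line. The 3 entries of imprinted regions (SNORD64, SNORD113/SNORD114 and SNORD116) took 0.487%, 0.660%, 0.0280%, 0.741% and 0.811%. Of these, 2 were measured in each comparison, and both were lower by 4-fold or more in spermatozoa than in spermatogonia, oocytes and zygotes on both scales. Of all measured snoRNA entries 20.8% (set) and 50.8% (4 classes) were as much lower against spermatogonia, 15.9% and 21.5% against oocytes, and 18.9% and 20.8% against zygotes. The entry named SNORD116 also carries the name HBII-52, which belongs to SNORD115, so it cannot be assigned to 1 of them.

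Members were also grouped by the kind of gene that hosts them. These lists were set by SNORD number and are partial. SNORD23, in an intron of Nop53, and SNORD12, in Zfas1, for example, are in none of them. The 8 members of Snhg1, a non-coding host, took 15.3% in PGCs and 6.74% in spermatogonia, 3.08% in spermatozoa, and 4.37% in oocytes and 4.23% in zygotes, with SNORD28 and SNORD26 the most abundant over the libraries. The 13 members listed under genes of ribosome and snoRNP assembly (among them SNORD57 and SNORD105) took 14.5%, 21.9%, 27.3%, 4.93% and 4.58%. The egg libraries were lowest for this group, yet its median log2 ratio of spermatozoa over oocytes was -0.15, against 0.70 over all members. Of its 10 measured members 1 was higher by 4-fold or more in spermatozoa, against 22.4% of all measured snoRNA entries. SNORD23, not in the list, took 0.320% in spermatozoa and 0.0438% in oocytes, so this count depends on how the list was drawn.

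The 16 members listed under ribosomal protein genes took 29.5%, 28.3%, 34.8%, 20.5% and 26.2%. In spermatozoa against oocytes 7 of these 16 were at least 4-fold higher and 3 lower (22.4% and 15.9% of all measured snoRNA entries), with a median log2 ratio of 1.45 against 0.70 over all members. The 16 include the entry SNORD117/SNORD83/SNORD84, listed by its number 83, which cannot be assigned to 1 of these names or to its host. It took 0.394% in spermatozoa and 0.0691% in oocytes and is among the 7. The count and median for this class are therefore uncertain. The 8 members of other non-coding hosts (SNORD49 and SNORD99 the most abundant) took 8.03% to 13.3%, and the 4 of translation factor hosts (SNORD95 and SNORD66) 2.02% to 4.21%. Hosts for members without a matched gene were taken from general knowledge.

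Members of 1 host gene come from the same primary transcript, so their levels can be compared within a library, here as reads per base of the annotated genes. In Nop56, SNORD57 was above SNORD110 in every library, by 29.5-fold in PGCs and 73.5-fold in spermatogonia, 51.5-fold in spermatozoa, and 17.1-fold in oocytes and 14.1-fold in zygotes. In 2410006H16Rik, the SNORD49 entry (both copies together) was 64.7-fold above SNORD65 in PGCs, 170.2-fold in spermatogonia, 238.3-fold in oocytes and 378.7-fold in zygotes, and in spermatozoa SNORD65 had 3.5 reads against 3986. Reads per base thus differed widely between introns of 1 host.

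In Wdr43, SNORD53 was above SNORD92 by 4.34-fold in spermatogonia to 27.9-fold in oocytes, with 5 to 71 reads of SNORD92. In Gnl3 the order changed. SNORD69 was above SNORD19 per base by 2.33-fold in PGCs, 1.26-fold in spermatogonia and 1.88-fold in spermatozoa, but SNORD19 was 5.43-fold above SNORD69 in oocytes, and in zygotes SNORD69 was 1.08-fold above. From oocyte to zygote SNORD19 had 554.67 and 271.83 reads while SNORD69 had 107.5 and 310.17, so the 2 members of this host went opposite ways, with counting intervals that do not overlap.

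**Figure D5:**
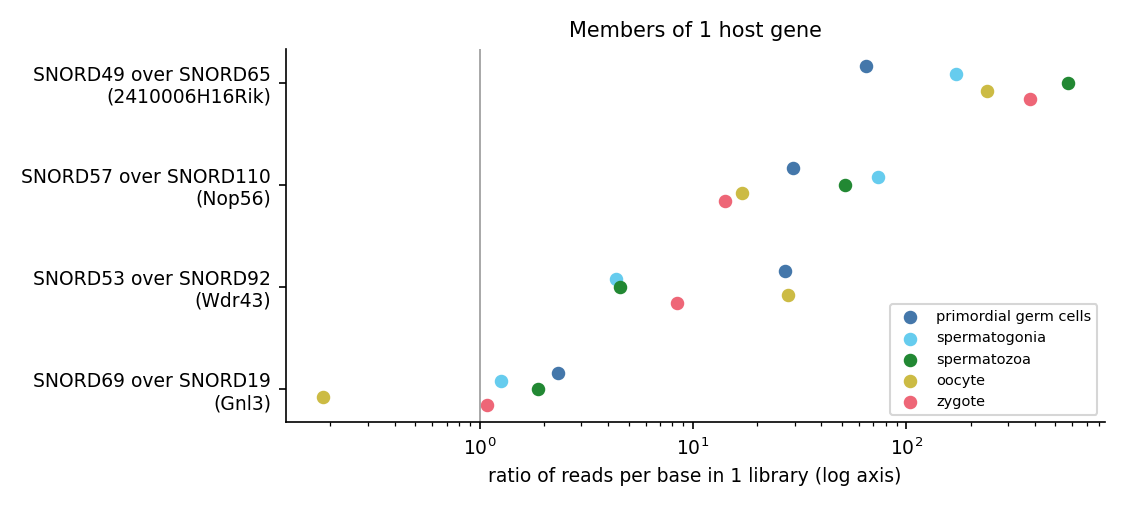
Points give, for each of 5 libraries, the ratio of reads per base between 2 members of 1 host gene (log axis). SNORD57 and SNORD49 lie above their partners in all 5 libraries, while SNORD69 over SNORD19 falls under 1 in oocytes, where SNORD19 was 5.43-fold above.

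Of the remaining members, 4 had no read in some library. SNORD103 had 0 reads in oocytes and zygotes, which allows up to 29.2 and 32.8 reads per 1000000 of the set (3 counts), and 67 in PGCs. SNORD61 had 0 in PGCs, which allows up to 21.2, and SNORD14 and SNORD116 had 0 in spermatozoa, which allows up to 76.3. SNORD14 never had more than 15 reads, and no direction was read for these 4 members.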

How the data were processed

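Small RNA libraries of 5 mouse cell types were analysed, 1 per type. Read numbers are estimated counts as deposited by the authors, since 42.7% to 56% of the members' values are not whole. A second, normalised column, called TMM per the file headers, holds a signal that the authors deposited: the reads multiplied by 1 factor per library (0.672 in spermatogonia to 1.37 in zygotes). It served only as an alternative. Bowtie 0.12.7, DESeq and mm10 are named without roles in the submitters' processing notes, and the handling of reads with several matches is not given in the sources used here. Depth is given in the report. The rule set the members and both scales. Members and lists were chosen with earlier results of these data known. An entry absent from a library was taken as 0 reads.

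For log2 ratios 0.5 reads were added to each count. A member was measured with 100 or more reads summed over the pair, and members 4-fold or more apart were counted. Fold differences are ratios of shares with nothing added, with exact 95% conditional intervals for 2 Poisson counts, computed on rounded reads (scipy 1.17.1). Against 0 reads a floor of 3 counts was used. Ratio code was tested on simulated data. Alternatives were scaling to the 4 classes, TMM factors (edgeR 4.0.16) or size factors (DESeq2 1.42.0) from rounded snoRNA reads, set totals lacking the 5 most abundant members of every library, read minimums of 20 and 1, a pseudocount of 5 and a threshold of 2-fold. Named were the 10 members with the highest mean share, the 3 most abundant of each library, the 5 highest and 5 lowest ratios of each comparison, the 2 most abundant of each list and members without a read in a library. The entry SNORD82/U82/Z25 equals the sum of SNORD82/U82 and Z25 in every library, so SNORD82 reads enter the set more than once.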

Additional observations from a re-analysis of the deposited data

How the results depend on the processing

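The 50 named log2 ratios were the 5 highest and 5 lowest of each comparison, and a scaling shifts all members of a comparison alike. A reversal was looked for only among ratios of at least 4-fold, and none was found under the settings that follow. Ratios picked as extremes could hardly reverse under such shifts, so this is no measure of robustness. The ratio moved beyond its counting interval for 22 of the 50 with the 4 classes, 28 with TMM factors and 26 with DESeq2 size factors. It did so for 16 without the 5 most abundant members, 38 with the deposited factor, 13 without SNORD63 and 0 with a pseudocount of 5. The deposited factor and the total without SNORD63 were chosen after seeing the data. No paired analysis was possible because each cell type has 1 library and the labels give no replicate numbers.

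Counts of members at least 4-fold higher and lower are given in that order where they moved by over 1.5 times. Zygote against oocyte (0 and 0) gave 1 lower with the 4 classes, 1 higher with the deposited factor, and 2 and 3 at 2-fold. Zygote against spermatozoa (9 and 15) gave 15 and 8 with TMM factors and without the 5 most abundant members, 19 and 7 with the deposited factor, 23 lower with a minimum of 1 read, and 16 and 25 at 2-fold. Spermatozoa against oocyte (16 and 9) gave 8 and 14 with TMM factors and with the deposited factor, 10 higher with DESeq2, 9 and 14 without the 5 most abundant members and without SNORD63, and 29 and 15 at 2-fold. Spermatogonia against PGCs (7 and 2) gave 4 higher with the 4 classes and with TMM factors, 3 with DESeq2, 2 and 4 with the deposited factor, and 18 and 8 at 2-fold. Spermatozoa against spermatogonia (6 and 12) gave 1 and 33 with the 4 classes, 1 and 23 with the deposited factor, 6 lower with DESeq2, and 13 and 26 at 2-fold.

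Without the 5 most abundant members of each library (pooled), the set was 0.180% of the 4 classes in PGCs and 0.151% in spermatogonia, 0.0559% in spermatozoa, and 0.0425% in oocytes and 0.0366% in zygotes. Of snoRNA reads the whole set was 1.87%, 2.34%, 3.79%, 13.3% and 14.8%. Leaving out those members thus put both egg libraries below spermatozoa. Depth was least in spermatozoa, where 1 read is worth most and the median member had 146.5 reads.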
